A study of Mus musculus with 4 samples.

Results

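The genes described here are 32 mouse genes of fatty acid oxidation, chosen by symbol: the enzymes that break fatty acids down in mitochondria and peroxisomes, the proteins that bring fatty acids to them, and 4 regulators. All 32 were found among the 24421 genes of each library. Poly(A) RNA was sequenced from 2 Usp25-/- mice (animals 826 and 850), which lack the deubiquitinating enzyme Usp25, and from 2 Usp25+/+ mice (animals 139 and 140). Per the labels, all 4 were females of 8 weeks on the C57BL/6 background. They drank 2.5% dextran sulfate sodium (DSS), which injures the colon epithelium, for 5 days and plain water for 2 days. The labelled tissue is distal colon, and animals without DSS were not analysed here. The comparison asks how expression differs between the genotypes after that treatment. Levels are in FPKM, fragments scaled by transcript length and by the mapped fragments of the library, and the sequencing depth behind them is unknown.

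A fatty acid is taken up by the cell, joined to coenzyme A by an acyl-CoA synthetase, and carried into the mitochondrion as a carnitine ester. There a repeating cycle of dehydrogenation, hydration, a further dehydrogenation and thiolytic cleavage shortens it and releases acetyl-CoA, while electron transfer flavoprotein hands the electrons of the first step to the respiratory chain. Peroxisomes run a related cycle that starts on very long chains. The nuclear receptor PPAR-alpha, encoded by Ppara, and the PGC-1 coactivators induce many of these genes in liver, heart and muscle. In the colon, oxidation of the short-chain fatty acid butyrate is a main energy source of the epithelium.

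The transcripts of all 4 libraries went against the labelled tissue. Summed over 10 markers, alveolar type 2 cells of the lung stood at 5031 and 4711 FPKM in Usp25-/- 826 and 850, against 1578 and 3924 FPKM in Usp25+/+ 139 and 140. The 8 alveolar macrophage markers found summed to 10359 and 7531 FPKM in Usp25-/-, against 7266 and 10188 FPKM in Usp25+/+. Most of that sum was Chil3, at 8882 and 6380 FPKM in Usp25-/-, against 6219 and 8777 FPKM in Usp25+/+. The 10 colonocyte markers summed to 13.8 to 64.5 FPKM. Of these, 5 were under 1 FPKM in every library, and the chloride exchanger Slc26a3 did not exceed 0.124 FPKM. Most of the sum was Krt20, at 52.4 and 7.35 FPKM in Usp25-/- against 4.31 and 3.11 FPKM in Usp25+/+, and Slc37a2. Slc37a2 stood at 8.06 and 6.74 FPKM, against 9.22 and 10.5 FPKM. The 8 goblet cell markers summed to 18.8 to 29.8 FPKM, most of it Agr2 at 18.6 to 24.4 FPKM. The Y-linked gene Ddx3y was listed at 12.7 to 30.3 FPKM and Xist at 0 to 0.110 FPKM, against the labelled sex. The level of Usp25 followed the genotype labels, with 2.65 and 1.71 FPKM in Usp25-/-, against 38.5 and 16.6 FPKM in Usp25+/+, and the deleted segment is not named in the labels. Library Usp25+/+ 139 stood apart: its 9 neutrophil markers found summed to 45753 FPKM, or 8.57% of its total, against 0.144% to 0.365% in the other libraries. Genotypes below are those of the labels, and no value is taken as a measurement of colon. The main counts of members higher and lower in Usp25-/- are also given without animal 139. Counts of genes without overlap between the genotypes are given only with it.

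No member passed the test between the genotypes. On log2(FPKM + 1), limma with Benjamini-Hochberg adjustment called 0 of the 29 members with a mean of at least 1 FPKM, and 0 of 12011 genes (0% of the background). At an unadjusted p of 0.05 it marked 0 members and 375 genes (3.12%). Usp25 itself was not called, with a log2 fold change of -3.07 (SE 0.47) at a limma adjusted p of 0.960. The lack of calls among the members thus does not show that they were unchanged. Of the 29 members, 21 had a log2 fold change above 0 in Usp25-/- and 8 below it, with a median of 0.19, where 53.5% of all tested genes were above 0 and their median was 0.034. Without animal 139 the counts were 11 above and 18 below, and the median was -0.10. The smallest p that an exact permutation test can reach with 2 libraries against 2 is 0.333.

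**Figure D1:**
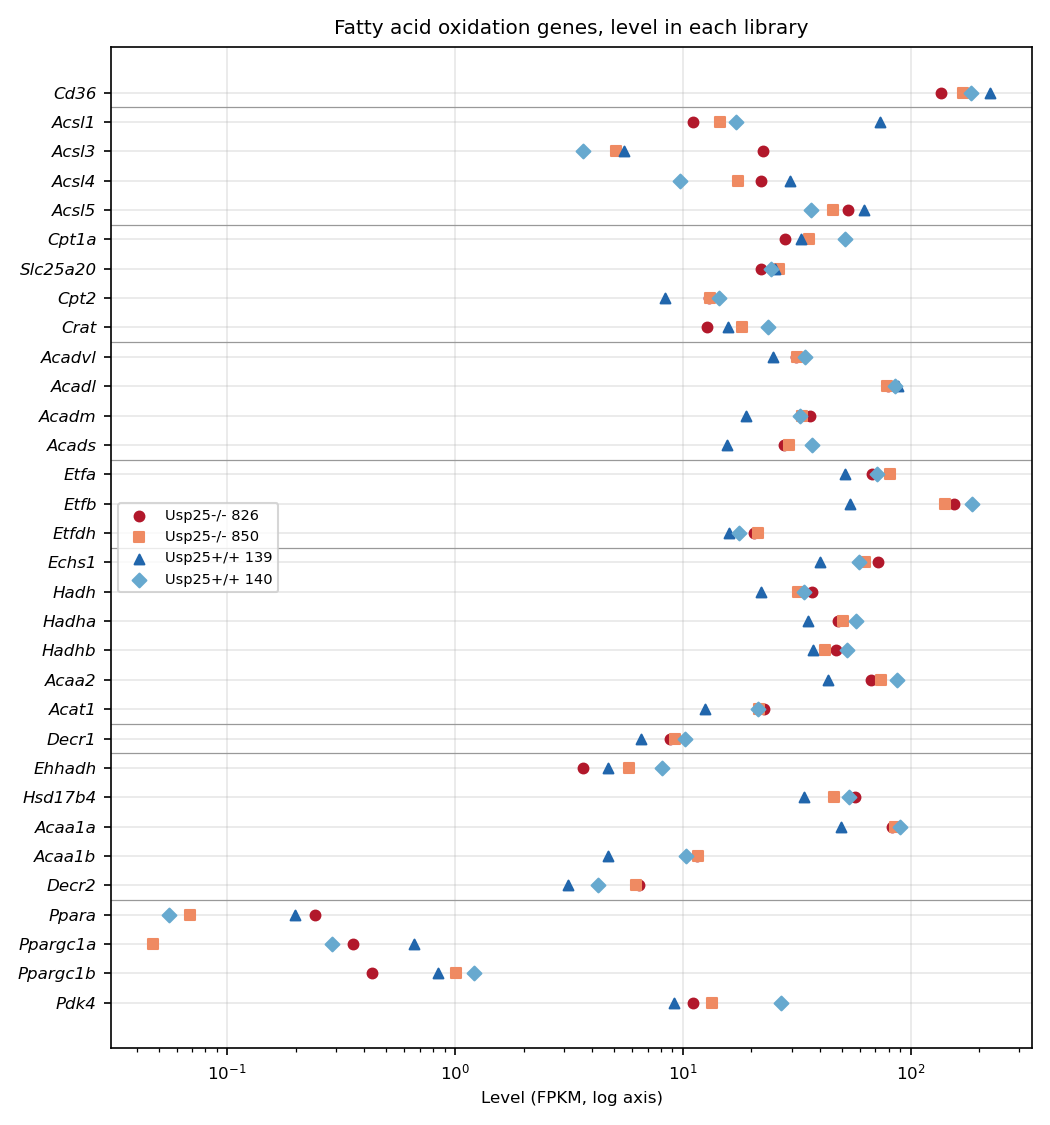
Level of each of the 32 members in FPKM on a log axis, with 1 point for each library (Usp25-/- in red and orange, Usp25+/+ in dark and light blue) and lines between role groups. Cd36 stood highest by mean, the 3 regulators Ppara, Ppargc1a and Ppargc1b lowest, and the dark blue triangles of animal 139 lay lowest in 19 of the 29 tested members.

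Of the 5 genes of fatty acid uptake and activation, 4 were highest in animal 139, and none passed the test. Cd36, a fatty acid translocase and scavenger receptor of capillary endothelium, fat cells and macrophages, was the most abundant member. Its level was 137 and 170 FPKM in Usp25-/- 826 and 850, against 223 and 184 FPKM in Usp25+/+ 139 and 140. Its genotypes did not overlap, and the log2 fold change was -0.41 (SE 0.33) at a limma adjusted p of 0.960. The 8 capillary endothelium markers summed to 98.2 and 183 FPKM in Usp25-/-, against 111 and 251 FPKM in Usp25+/+, and the part of such cells in the level of Cd36 was not tested. In bulk tissue, fewer cells of a type and less RNA in each cell cannot be told apart.

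The 4 long-chain acyl-CoA synthetases did not share 1 order of the libraries, although Acsl4 and Acsl5 had the same one. Acsl1, the synthetase best known from fat, heart and liver, was listed at 11.1 and 14.5 FPKM in Usp25-/-, against 73.3 and 17.1 FPKM in Usp25+/+. Animal 139 was 4.28-fold above animal 140, so that the log2 fold change of -1.42 (SE 0.70), at a limma adjusted p of 0.960, became -0.41 without 139. Animal 140 also lay above both Usp25-/- libraries, and the genotypes did not overlap. Acsl3, which is found on the endoplasmic reticulum and lipid droplets, was listed at 22.4 and 5.09 FPKM in Usp25-/-, against 5.53 and 3.63 FPKM in Usp25+/+. Here 826 stood 4.41-fold above 850, and the log2 fold change of 1.12 (SE 0.68) became 0.15 without 826. Acsl4, which prefers arachidonic acid, was listed at 22.1 and 17.4 FPKM in Usp25-/-, against 29.6 and 9.67 FPKM in Usp25+/+. Both Usp25-/- values thus lay between those of the Usp25+/+ animals. The same held for Acsl5, a synthetase of mitochondria and endoplasmic reticulum that is abundant in gut epithelium, at 52.9 and 45.5 FPKM against 62.4 and 36.7 FPKM. Acsl5 was the most abundant of the 4 in 826, 850 and 140, with 48.8%, 55.1% and 54.6% of their summed level, while in 139 Acsl1 held 42.9% and Acsl5 36.5%. Cd36, Acsl1, Acsl4 and Acsl5, together with Acadl, were the 5 members highest in animal 139, where 29.9% of all tested genes were highest. Neutrophil markers were high in that library too, and the part of neutrophil RNA in their levels was not tested.

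**Figure D2:**
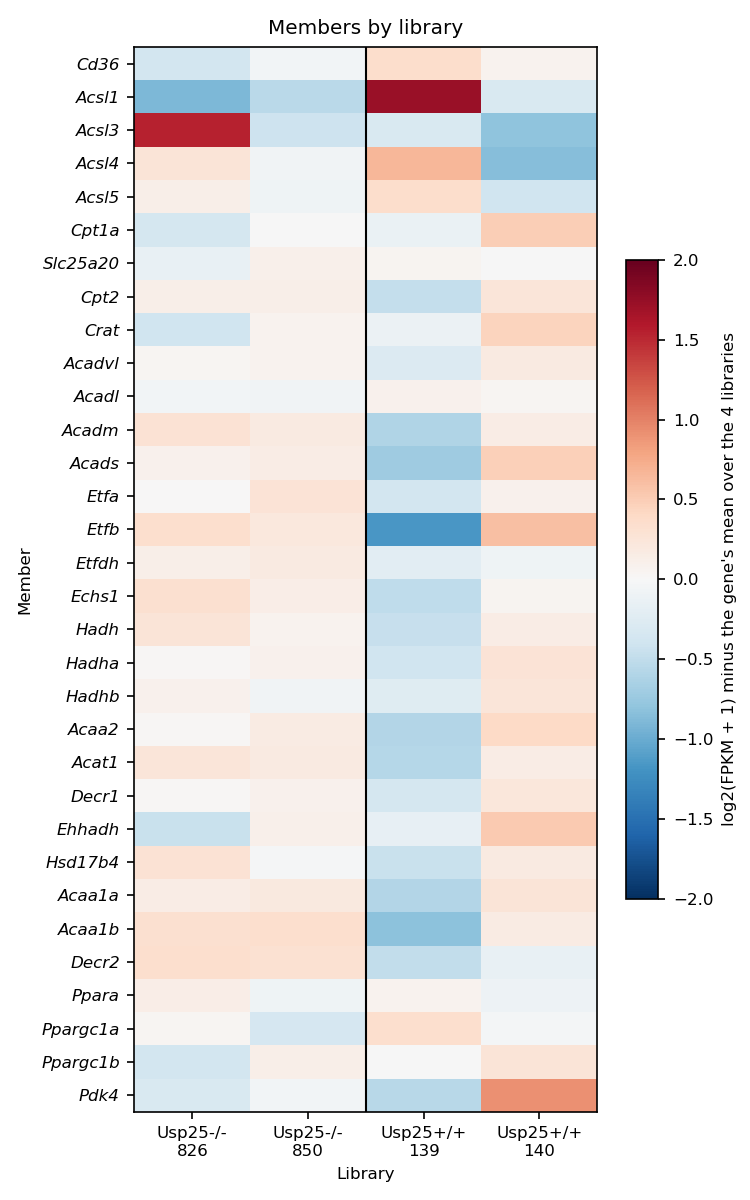
Deviation of each member in each library from the gene's own mean over the 4 libraries, on log2(FPKM + 1), with Usp25-/- left and Usp25+/+ right of the black line. The column of animal 139 is blue from Acadm to Decr2, palest at Ehhadh and Etfdh, while Acsl1 in 139 and Acsl3 in 826 are the darkest red cells.

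The carnitine shuttle, which moves acyl groups across the mitochondrial membranes, gave no gene whose genotypes separated, where 33.8% of all tested genes separated them. Cpt1a, the outer membrane carnitine palmitoyltransferase that controls entry into the pathway, was listed at 28.0 and 35.8 FPKM in Usp25-/-, against 33.0 and 51.4 FPKM in Usp25+/+. Its log2 fold change was -0.37 (SE 0.35), at a limma adjusted p of 0.960, and ranged from -0.68 to -0.056 with each library left out in turn. The muscle form Cpt1b did not exceed 0.582 FPKM. Slc25a20, the carnitine-acylcarnitine carrier of the inner membrane, varied least of the 4, at 22.1 and 26.3 FPKM in Usp25-/- against 25.4 and 24.3 FPKM in Usp25+/+. Cpt2, which returns the acyl group to coenzyme A inside, stood at 13.1 and 13.2 FPKM in Usp25-/-, against 8.33 and 14.5 FPKM in Usp25+/+. Crat, which exchanges acetyl groups with carnitine, stood at 12.7 and 18.1 FPKM, against 15.8 and 23.7 FPKM. In Cpt1a, Cpt2 and Crat animal 140 was highest, and in Cpt1a, Slc25a20 and Crat animal 826 was lowest.

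The acyl-CoA dehydrogenases, which make the first double bond of each round, are graded by chain length. Acadl, the long-chain enzyme, was the most abundant of the 4 per length, at 79.4 and 79.0 FPKM in Usp25-/-, against 88.1 and 85.0 FPKM in Usp25+/+. Its genotypes did not overlap, with a log2 fold change of -0.13 (SE 0.29) at a limma adjusted p of 0.971. Acadm, the medium-chain enzyme, was listed at 36.0 and 33.3 FPKM in Usp25-/-, against 19.0 and 32.5 FPKM in Usp25+/+. It separated the genotypes by 0.031 log2 units, and its log2 fold change of 0.46 (SE 0.36) became 0.086 without animal 139. Acads, the short-chain enzyme, stood at 27.9 and 29.2 FPKM, against 15.7 and 37.1 FPKM, and its log2 fold change of 0.23 became -0.36 without 139. Acadvl, the very-long-chain enzyme of the inner membrane, stood at 31.2 and 31.8 FPKM, against 24.8 and 34.5 FPKM. Acadvl shares 1151 exon bases with Dvl2 in the mm9 annotation, and reads without strand cannot be assigned between them. Shorter stretches of exon are shared with annotated neighbours by Acsl3 (206 bases), Crat (411), Hadha (78), Acaa1a (67) and Acaa1b (224). The ratio of Acadl to Acadm stood apart in animal 139: it was 2.20 and 2.37 in Usp25-/-, against 4.65 and 2.61 in Usp25+/+ 139 and 140. That of Acads to Acadm did not, at 0.776 and 0.878 in Usp25-/-, against 0.826 and 1.14 in Usp25+/+ 139 and 140.

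Electrons from these dehydrogenases pass through electron transfer flavoprotein, a dimer of the Etfa and Etfb products. Etfb was listed at 155 and 142 FPKM in Usp25-/-, against 53.9 and 186 FPKM in Usp25+/+, the largest shortfall of 139 against 140 among the members. Etfa was listed at 67.3 and 80.9 FPKM in Usp25-/-, against 51.6 and 71.3 FPKM in Usp25+/+. The ratio of Etfb to Etfa was 2.30 and 1.75 in Usp25-/-, against 1.04 and 2.61 in Usp25+/+, so that animal 139 alone held the 2 transcripts at nearly equal level. The log2 fold change of Etfb, 0.56 (SE 0.63), became -0.33 without 139. Etfdh, the flavoprotein dehydrogenase that delivers the electrons to ubiquinone, was listed at 20.4 and 21.3 FPKM in Usp25-/-, against 16.0 and 17.7 FPKM in Usp25+/+. Its genotypes lay 0.20 log2 units apart, and the log2 fold change of 0.30 (SE 0.27), at a limma adjusted p of 0.960, ranged from 0.23 to 0.37 with each library left out in turn.

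All 6 members of the hydratase, hydroxyacyl-CoA dehydrogenase and thiolase steps had a log2 fold change above 0, between 0.015 and 0.45, but Hadhb turned below 0 under median ratio scaling. Without animal 139 this held for 3 of the 6, Echs1, Hadh and Acat1. Echs1, the short-chain enoyl-CoA hydratase, was listed at 71.7 and 62.9 FPKM in Usp25-/-, against 39.9 and 59.6 FPKM in Usp25+/+. Its log2 fold change was 0.45 (SE 0.34), and 0.17 without 139. Acat1, the acetoacetyl-CoA thiolase that also serves ketone body use, was listed at 22.7 and 21.7 FPKM, against 12.6 and 21.3 FPKM, and its log2 fold change of 0.41 (SE 0.35) became 0.055 without 139. Animal 140 lay just under both Usp25-/- libraries in each of the 2 genes, and 139 lay far under them. Hadh, the short-chain hydroxyacyl-CoA dehydrogenase, stood at 36.8 and 32.2 FPKM, against 21.9 and 34.1 FPKM. Acaa2, the mitochondrial thiolase of the last step, stood at 66.7 and 74.1 FPKM, against 43.3 and 86.9 FPKM. In Hadh and Acaa2 the Usp25+/+ values lay on both sides of at least 1 Usp25-/- value.

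Hadha and Hadhb encode the alpha and beta subunits of the mitochondrial trifunctional protein and run in opposite directions on chromosome 5. Their starts have 272 bases between them in RefSeq on GRCm38.p6 and 85 in GENCODE vM1 on mm9. Hadha was listed at 48.1 and 50.4 FPKM in Usp25-/-, against 35.5 and 57.4 FPKM in Usp25+/+. Hadhb was listed at 47.2 and 42.2 FPKM in Usp25-/-, against 37.2 and 52.5 FPKM in Usp25+/+. Both were thus lowest in 139 and highest in 140, and the ratio of Hadha to Hadhb stayed between 0.954 and 1.19 over the 4 libraries.

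Sequence before the start was read from RefSeq promoters on GRCm38.p6, which held 26 of the 32 members, in 27 windows of 250 bases. The windows shown are those of Hadhb, whose start lies beside that of Hadha, of Acadm, Echs1, Etfdh and Decr2, which separated the genotypes with higher values in Usp25-/-, and of Cpt1a, which did not. Capitals mark AGGTCA (the half-site bound by PPAR and related nuclear receptors), GGGCGG (the Sp1 box) and CCAAT (the NF-Y box) on either strand. The windows are chr5:30155003-30155252 (plus strand), chr3:153944644-153944893, chr7:140116422-140116671, chr3:79628768-79629017 and chr17:26090165-26090414 (minus strand), and chr19:3323051-3323300 (plus strand), in the order printed.
Hadhb: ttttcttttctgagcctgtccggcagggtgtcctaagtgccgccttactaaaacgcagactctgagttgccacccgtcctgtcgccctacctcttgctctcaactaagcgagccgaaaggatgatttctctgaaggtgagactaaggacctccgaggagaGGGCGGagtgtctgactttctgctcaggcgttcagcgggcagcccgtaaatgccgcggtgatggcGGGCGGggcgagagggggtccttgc
Acadm: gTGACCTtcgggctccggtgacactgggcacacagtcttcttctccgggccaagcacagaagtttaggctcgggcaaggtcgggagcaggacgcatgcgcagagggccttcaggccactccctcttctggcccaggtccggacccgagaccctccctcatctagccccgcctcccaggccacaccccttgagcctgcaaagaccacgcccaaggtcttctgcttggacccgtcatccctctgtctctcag
Echs1: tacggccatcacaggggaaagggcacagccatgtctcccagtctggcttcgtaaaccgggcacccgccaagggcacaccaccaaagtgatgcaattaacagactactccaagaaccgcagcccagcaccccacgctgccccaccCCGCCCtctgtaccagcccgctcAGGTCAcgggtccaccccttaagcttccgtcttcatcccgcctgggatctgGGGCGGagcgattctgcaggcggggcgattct
Etfdh: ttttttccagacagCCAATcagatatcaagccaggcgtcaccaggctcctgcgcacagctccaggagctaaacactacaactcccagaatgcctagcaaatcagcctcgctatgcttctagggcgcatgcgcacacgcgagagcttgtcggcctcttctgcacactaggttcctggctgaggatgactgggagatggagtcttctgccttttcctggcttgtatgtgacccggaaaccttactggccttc
Decr2: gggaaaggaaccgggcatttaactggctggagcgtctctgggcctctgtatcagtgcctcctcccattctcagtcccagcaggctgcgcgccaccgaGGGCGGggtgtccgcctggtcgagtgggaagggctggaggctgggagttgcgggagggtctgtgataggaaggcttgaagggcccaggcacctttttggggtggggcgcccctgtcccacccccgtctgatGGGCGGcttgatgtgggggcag
Cpt1a: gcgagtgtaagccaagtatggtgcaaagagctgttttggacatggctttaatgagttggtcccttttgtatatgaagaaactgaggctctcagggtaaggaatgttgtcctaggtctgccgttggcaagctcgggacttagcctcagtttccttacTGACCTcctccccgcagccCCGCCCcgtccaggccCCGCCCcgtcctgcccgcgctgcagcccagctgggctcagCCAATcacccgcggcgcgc
AGGTCA was found in 5 of the 27 member windows (18.5%), those of Acadm, Acadvl, Cd36, Cpt1a and Echs1, and in 14.0% of all 32851 promoter windows of the same length. GGGCGG was found in 17 of 27 (63.0%), against 32.7% of all windows, and CCAAT in 13 of 27 (48.1%), against 33.8%. A direct repeat of AGGTCA with 1 base between its copies, the response element of PPAR-alpha, was found in 0 member windows and in 0.0335% of all windows, and TATAAA in 0 member windows and in 12.4% of all. Of the 5 genes with AGGTCA, Acadm, Acadvl and Echs1 had a log2 fold change above 0 in Usp25-/- (Acadvl at -0.12 without animal 139), and Cd36 and Cpt1a had one below 0. A match is a run of letters and not a bound site.

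Of the 5 peroxisomal enzymes, 2 (40%), Decr2 and Acaa1b, separated the genotypes, against 33.8% of all tested genes. Decr2, the peroxisomal 2,4-dienoyl-CoA reductase needed for polyunsaturated fatty acids, was listed at 6.41 and 6.25 FPKM in Usp25-/-, against 3.14 and 4.25 FPKM in Usp25+/+. Means were 6.33 ± 0.11 FPKM in Usp25-/- and 3.70 ± 0.78 FPKM in Usp25+/+ (SD, n = 2 each). Its log2 fold change was 0.65 (SE 0.29), with a limma unadjusted p of 0.0733 and an adjusted p of 0.960, and it ranged from 0.48 to 0.82 with each library left out in turn. The gap of 0.47 log2 units was the widest of the 29 members. Decr2 lies on mm9 chromosome 17 from 26218156 to 26227274 on the minus strand, with no exon shared with another annotated gene. Its mitochondrial counterpart Decr1 was listed at 8.74 and 9.20 FPKM in Usp25-/-, against 6.53 and 10.3 FPKM in Usp25+/+, and did not separate the genotypes.

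Acaa1a and Acaa1b encode peroxisomal thiolases whose longest transcripts are 96.6% identical over 1428 aligned bases, so that the division of reads between them is uncertain. Acaa1b was listed at 11.6 and 11.7 FPKM in Usp25-/-, against 4.68 and 10.3 FPKM in Usp25+/+, and its log2 fold change of 0.65 (SE 0.41) became 0.16 without animal 139. Acaa1a was listed at 82.9 and 85.5 FPKM in Usp25-/-, against 49.3 and 89.4 FPKM in Usp25+/+, and its log2 fold change of 0.34 became -0.084 without 139. Animal 139 was the low library for both. Hsd17b4, the D-bifunctional protein of the main peroxisomal route, stood at 57.1 and 46.2 FPKM, against 34.0 and 53.4 FPKM. Ehhadh, the L-bifunctional protein and a PPAR-alpha target in liver, stood at 3.66 and 5.82 FPKM, against 4.69 and 8.14 FPKM. Ehhadh was the only peroxisomal member with a log2 fold change below 0 with all 4 libraries (-0.36, SE 0.38).

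Of the regulators, Ppara did not exceed 0.242 FPKM, Ppargc1a did not exceed 0.664 FPKM and Ppargc1b did not exceed 1.22 FPKM in any library. Their means were under the 1 FPKM that was required for the test. Pdk4, the kinase that switches off pyruvate dehydrogenase and is induced by PPARs and in fasting, was listed at 11.0 and 13.4 FPKM in Usp25-/-, against 9.13 and 27.1 FPKM in Usp25+/+. Both Usp25-/- values lay between the Usp25+/+ values. Its log2 fold change was -0.36 (SE 0.53), and it became -1.09 without 139 and 0.38 without 140.

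**Figure D3:**
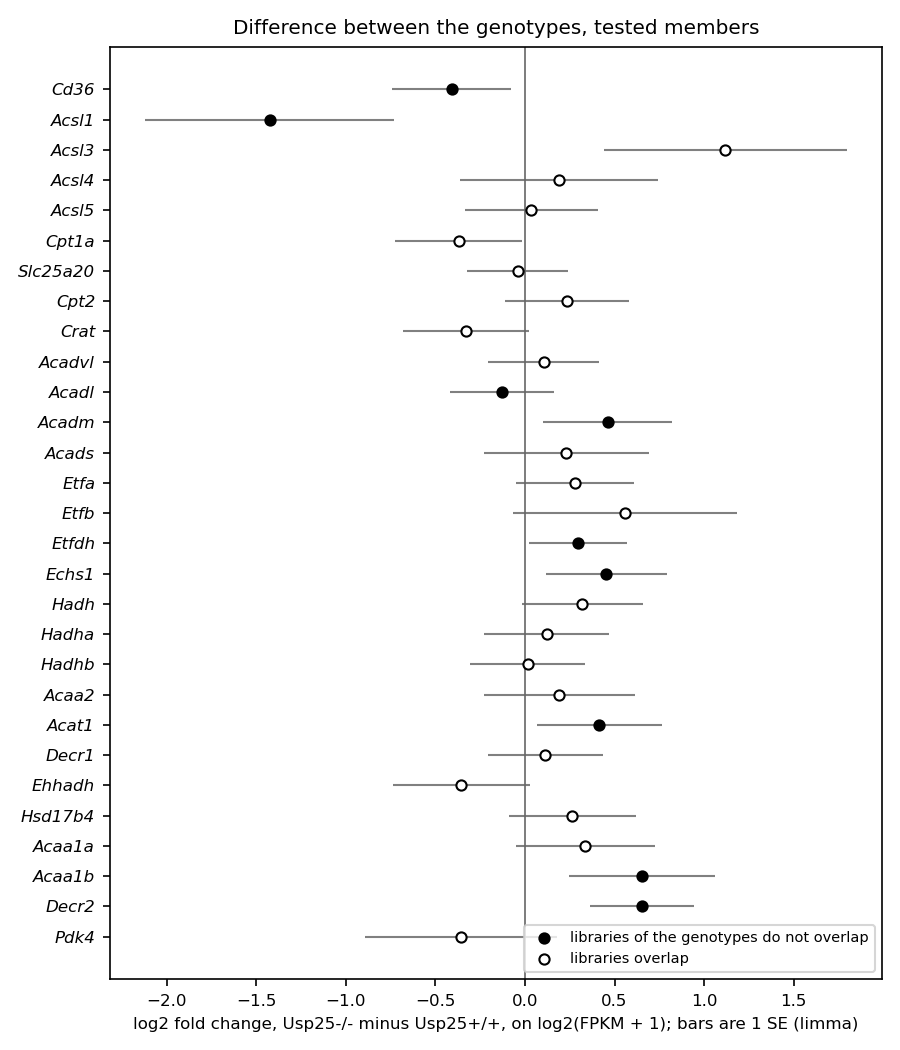
Log2 fold change of the 29 tested members, Usp25-/- minus Usp25+/+ on log2(FPKM + 1), with bars of 1 SE from limma. Filled points mark the 9 members whose libraries do not overlap between the genotypes, 6 to the right of 0 and 3 to the left, and none passed the test.

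Of the 29 tested members, 9 (31.0%) had no overlap between the libraries of the genotypes, against 33.8% of all tested genes. Acadm, Etfdh, Echs1, Acat1, Acaa1b and Decr2 were higher in Usp25-/-, where 19.0% of all genes were higher without overlap. Cd36, Acsl1 and Acadl were lower, where 14.7% of all genes were. The share of members without overlap was thus close to the background.

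Spread between the Usp25+/+ animals exceeded the difference between the genotypes in most members. The median absolute difference on log2(FPKM + 1) was 0.32 between genotype means, 0.16 between 826 and 850, and 0.63 between 139 and 140. Over all tested genes these medians were 0.28, 0.27 and 0.50. In 24 of the 29 members the genotype difference was smaller than that between 139 and 140, as it was in 69.1% of all tested genes. In 4 members (Cd36, Acadl, Etfdh and Decr2) the genotype difference was larger than the difference within either genotype, or 13.8% against 19.8% of all tested genes. Animal 139 was the lowest library in 19 of the 29 members, against 39.3% of all tested genes. The 10 exceptions were Cd36, the 4 synthetases, Cpt1a, Slc25a20, Crat, Acadl and Ehhadh. From the carnitine shuttle on, a grouping of 23 members made after their values were seen, 18 were lowest in 139. Summed levels of these 23 were 957 and 959 FPKM in Usp25-/-, against 644 and 1066 FPKM in Usp25+/+. Without 139, 8 of the 23 had a log2 fold change above 0 and the median was -0.10. Neutrophil markers were high in 139, and the summed alveolar type 2 markers were low there. Most of that shortfall was Sftpc, at 339 FPKM in 139 against 2347 FPKM in 140. Of the 10 type 2 markers, 6 were lowest in 139, against 39.3% of all tested genes. Among these 6, Sftpd stood at 172 FPKM in 139 against 176 FPKM in 140, and Abca3 at 13.4 against 14.5 FPKM. The part of either cell type in the low values of 139 was not tested.

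**Figure D4:**
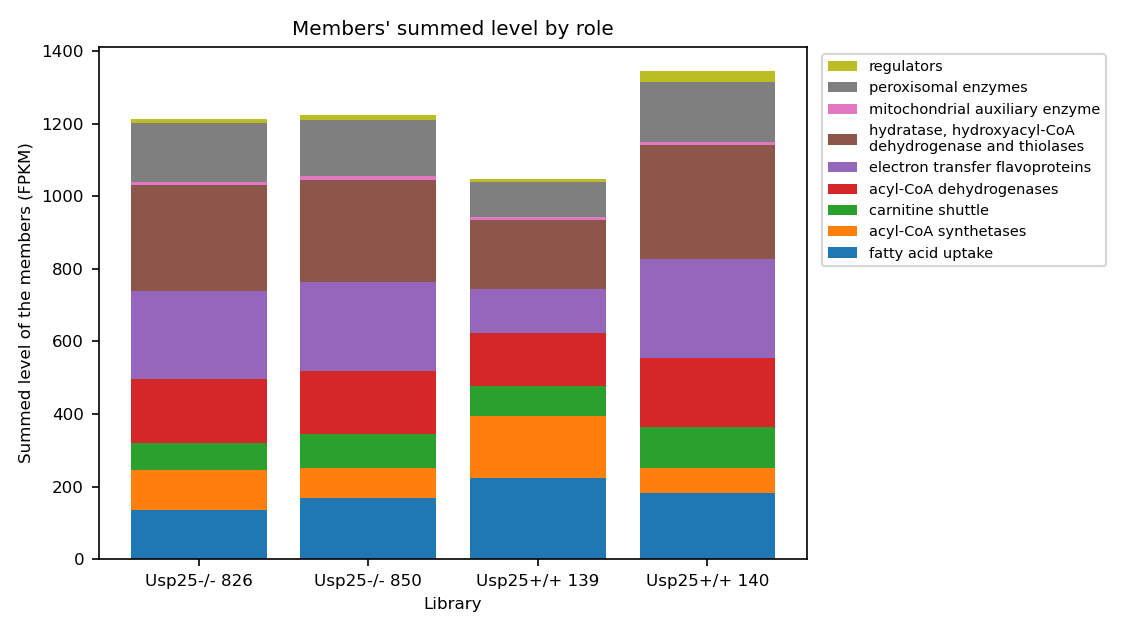
Summed level of the members in FPKM in each library, Usp25-/- left and Usp25+/+ right, divided by role. Totals were 1214 and 1226 FPKM in Usp25-/-, against 1049 and 1345 FPKM in Usp25+/+, and in animal 139 the synthetases and Cd36 took a larger part and the electron transfer flavoproteins, hydratases, thiolases and peroxisomal enzymes a smaller part than in the other libraries.

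None of the other listed genes of fatty acid oxidation passed the test. Of 34 further genes, which cover acyl-CoA oxidases, isomerases, transporters, fatty acid binding proteins and ketone body enzymes, 29 were tested. Among the 29, 18 were above 0 and 11 below, with a median log2 fold change of 0.092, and 20 were lowest in animal 139. Without 139 the median was -0.17, with 11 above 0. Libraries did not overlap in 7 of the 29 (24.1%), against 33.8% of all tested genes. Fabp5, a fatty acid binding protein, was listed at 484 and 835 FPKM in Usp25-/-, against 165 and 745 FPKM in Usp25+/+. Hsd17b10, a mitochondrial hydroxyacyl-CoA dehydrogenase, was listed at 68.4 and 56.2 FPKM, against 27.6 and 52.4 FPKM. The lowest fold changes were those of the peroxisomal oxidase Acox3 (-0.43, SE 0.44) and the transporter Slc27a4 (-0.26, SE 0.30).

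Genes that respond to PPARs outside the 32, of which 11 of 15 were tested, gave 6 above 0 and 5 below, with a median of 0.047 and 0 past the test. Their median was -0.34 without animal 139, -0.060 without 850 and 0.27 without 140. Angptl4, a lipoprotein lipase inhibitor, was listed at 84.8 and 44.5 FPKM in Usp25-/-, against 15.3 and 57.0 FPKM in Usp25+/+. Txnip, a thioredoxin-binding protein, was listed at 89.6 and 178 FPKM in Usp25-/-, against 212 and 241 FPKM in Usp25+/+. The PPAR and PGC-1 partners, 12 of 13 tested, gave 7 above 0, 5 below and 0 past the test, with a median of 0.020. It was -0.070 without 139, -0.076 without 850 and 0.47 without 140. Pparg, the PPAR of fat cells and alveolar macrophages, was listed at 80.4 and 66.6 FPKM in Usp25-/-, against 27.4 and 54.3 FPKM in Usp25+/+, at a log2 fold change of 0.90 (SE 0.42) and a limma adjusted p of 0.960. Tfam, which maintains mitochondrial DNA, was listed at 6.99 and 7.24 FPKM in Usp25-/-, against 4.21 and 4.37 FPKM in Usp25+/+. Of the 12 partners, 2 (16.7%), Pparg and Tfam, separated the genotypes, both with higher values in Usp25-/-. Of the 11 PPAR-responsive genes 2 (18.2%), Txnip among them, separated the genotypes, both with lower values, while Angptl4 did not. Both shares were under the 33.8% of all tested genes.

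Other mitochondrial genes followed animal 139 as well. Of 23 respiratory chain subunits 19 were above 0, with a median of 0.33, and 20 were lowest in 139. Without 139 the median was 0.054, with 14 above 0. Library 826 was highest in 14 of the 23, against 3051 of all 12011 tested genes. Ndufa4, a subunit of cytochrome oxidase, was listed at 459 and 315 FPKM in Usp25-/-, against 200.4 and 264 FPKM in Usp25+/+. Of 17 genes of the citric acid cycle 13 were above 0, with a median of 0.13. In 12 of the 17 animal 139 was lowest, and in 8 animal 826 was highest. Without 139 the median was -0.041, with 7 above 0. Libraries did not overlap in 11 of the 23 subunits (47.8%) and 7 of the 17 cycle genes (41.2%), against 33.8% of all tested genes. No gene of either list passed the test.

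Of 10 tested genes of lipolysis and lipid droplets, 2 were above 0 and 8 below, with a median of -0.22 that ranged from -0.33 to -0.15 with each library left out in turn, and 0 passed. Libraries did not overlap in 5 of the 10 (50%), against 33.8% of all tested genes. All 5 were lower in Usp25-/-, where 14.7% of all tested genes were lower without overlap. The hormone-sensitive lipase Lipe was listed at 4.51 and 5.56 FPKM in Usp25-/-, against 8.41 and 6.88 FPKM in Usp25+/+, and the lipoprotein lipase Lpl at 179 and 257 FPKM, against 296 and 273 FPKM. Of 15 tested genes of fatty acid synthesis 8 were above 0 and 7 below, with a median of 0.039 that became -0.094 without 139 and -0.12 without 850. In 6 of the 15 (40%) the libraries did not overlap. Me1, the malic enzyme that supplies NADPH, was listed at 28.5 and 15.0 FPKM, against 10.6 and 7.49 FPKM. Its log2 fold change was 1.13 (SE 0.41), at a limma unadjusted p of 0.0367 and an adjusted p of 0.960.

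**Figure D5:**
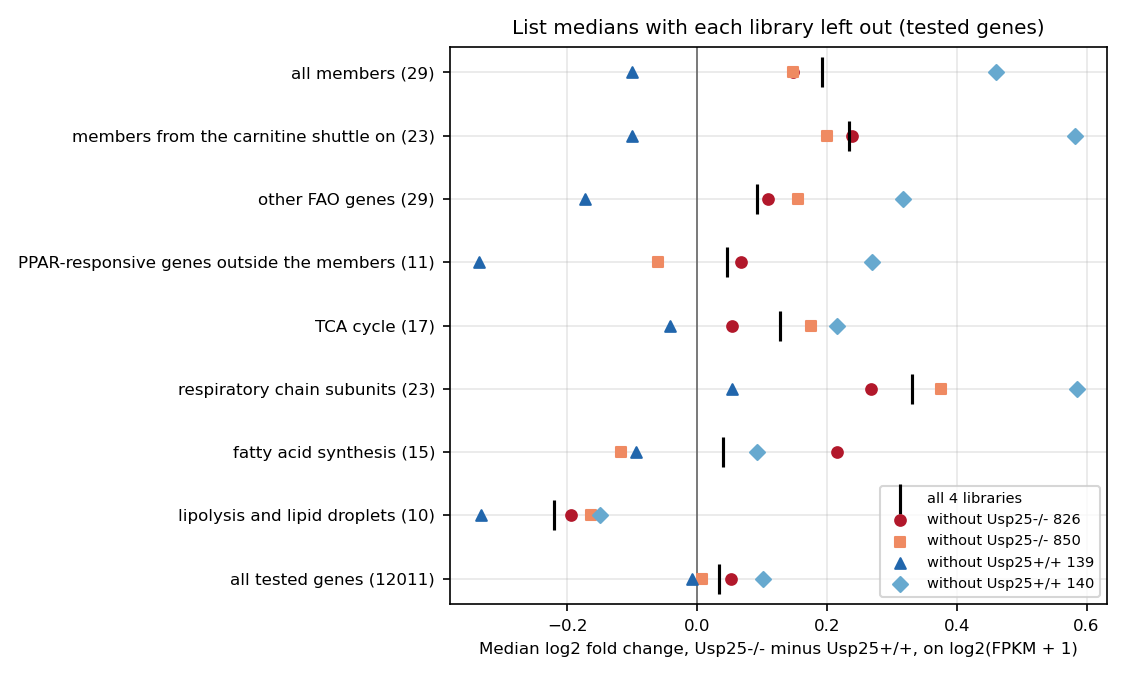
Median log2 fold change of tested genes in the members and in related lists, Usp25-/- minus Usp25+/+ on log2(FPKM + 1), with all 4 libraries (black bars) and with each library left out (coloured points); numbers of tested genes are in brackets. Without animal 139 the median of the members moved to -0.10, and without animal 140 to 0.46.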

How the data were processed

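Values were deposited as 1 table for each library, with a gene symbol and 1 value. They are taken as FPKM, since the submitters' processing notes name Cufflinks beside cutadapt, TopHat2 2.1.1 and the build mm9, and no header states the unit. For annotation and scaling, the sources used here give nothing. Libraries were made without strand information, per the labels' protocols. Library totals ran from 526652 to 565645 FPKM.

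Groups came from the genotype labels, and animal numbers give no pairing. The labels do not say that the animals were littermates. The members and lists were chosen with earlier results of these data known. Of 24421 genes, the 12011 whose mean reached 1 FPKM were tested on log2(FPKM + 1), a scale that shrinks the changes of genes at low level, with limma 3.58.1 in R 4.3.3 (lmFit, eBayes with trend, two-sided) and Benjamini-Hochberg adjustment over all tested genes at 0.05. The fit was checked on simulated data that held no library standing apart and planted changes larger than that of any tested member. That check thus does not tell how often changes as small as the members' would be called. Lists are described by counts and medians, without a test. Members without overlap and the 4 highest and 4 lowest by log2 fold change were given with every library's value, and of each other list up to 2 genes at either end could be named. Cpt1b and the tissue markers were named after their values were seen. Positions came from GENCODE vM1 on mm9, promoters from RefSeq on GRCm38.p6 and transcript identity from blastn 2.17.0. The 5 promoter motifs were chosen after promoters had been read.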

Additional observations from a re-analysis of the deposited data

How the results depend on the processing

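Alternatives were pseudocounts of 0.1 and 0.5, no filter on low values or a mean of at least 5 FPKM, 3 other scalings, a variance without trend, and each library left out in turn. Calls by limma numbered 0 members and 0 genes under each of them, and the smallest adjusted p of a member was 0.0859, without animal 140. The members' median log2 fold change was 0.14 to 0.21 under the settings that kept all 4 libraries, and -0.10 to 0.46 with a library left out. Members higher in Usp25-/- numbered 11 to 21, and members lower 8 to 18, with a library left out, with the 11 and the 18 both from the setting without animal 139. Among 232 values of single members under the 8 settings with all libraries, 2 changed direction, both under median ratio scaling, Acsl5 at -0.017 and Hadhb at -0.036. Among 116 with a library left out, 16 changed direction, in 14 members. Their lowest and highest values were -0.084 and 0.76 for Acaa1a, -0.30 and 0.69 for Acaa2, -0.36 and 0.83 for Acads, -0.12 and 0.33 for Acadvl, -0.57 and 0.95 for Acsl4, -0.34 and 0.41 for Acsl5, and -0.13 and 0.60 for Cpt2. For Decr1 they were -0.18 and 0.40, for Etfb -0.33 and 1.44, for Hadha -0.22 and 0.46, for Hadhb -0.23 and 0.26, for Hsd17b4 -0.053 and 0.58, for Pdk4 -1.09 and 0.38, and for Slc25a20 -0.16 and 0.083. The cause was not tested. A genotype left with 1 library is assumed to vary like the other. No paired analysis was possible because the genotypes share no animal number. Depth is unknown, so that no counting error could be given for low genes such as Ppara.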

Other observations

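Summed markers of cardiac muscle, skeletal muscle, hepatocytes and white adipocytes did not exceed 4.41 FPKM in any library. Summed brown adipocyte markers were higher in Usp25-/- than in Usp25+/+, but 4 of the 6 were under 1 FPKM in every library. Summed over each list, 8 cardiac muscle markers stood at 4.34 and 3.91 FPKM in Usp25-/-, against 4.41 and 2.20 FPKM in Usp25+/+. The 6 skeletal muscle markers did not exceed 2.24 FPKM in any library, the 6 hepatocyte markers 2.36 FPKM and the 6 white adipocyte markers 3.85 FPKM, again as sums. The 6 brown adipocyte markers summed to 16.1 and 6.32 FPKM in Usp25-/-, against 1.81 and 3.30 FPKM in Usp25+/+. In Usp25-/- the larger part of that sum was Cox7a1, a cytochrome oxidase subunit also known from muscle, at 11.2 and 3.48 FPKM in Usp25-/-, against 0.359 and 2.09 FPKM in Usp25+/+, while Ucp1, the uncoupling protein that defines brown fat, did not exceed 0.406 FPKM. Cidea, a lipid droplet protein of brown fat, was listed at 4.0 and 2.52 FPKM in Usp25-/-, against 0.681 and 1.05 FPKM in Usp25+/+, at a limma unadjusted p of 0.0215 and an adjusted p of 0.960. Cox7a1 and Cidea were singled out after their values were seen.

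Of the other lung and stromal lists, only the summed alveolar type 1 markers separated the genotypes, as the summed type 2 markers given above also did. Of the 7 type 1 markers tested, 3 (42.9%) did not overlap between the genotypes, against 33.8% of all tested genes. Another 2 of the 7 had a log2 fold change below 0. The 8 alveolar type 1 markers summed to 404 and 389 FPKM in Usp25-/-, against 222 and 354 FPKM in Usp25+/+, and the 5 club cell markers to 359 and 794 FPKM, against 1035 and 669.5 FPKM. The 6 ciliated cell markers summed to 59.3 and 96.5 FPKM in Usp25-/-, against 34.0 and 105 FPKM in Usp25+/+. The 8 fibroblast markers summed to 58.4 and 148 FPKM, against 57.5 and 81.0 FPKM, and the 6 smooth muscle markers to 15.5 and 20.1 FPKM, against 13.3 and 18.5 FPKM.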
